A study of Mus musculus with 44 samples.

Results

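The 9 genes Oit1, Haus1, Foxa3, Vav2, Ipo9, Tedc1, Rd3, Hspb7 and Zscan12 were followed here across male germ cells of adult mice because they differed between the kd-labelled and the wild-type animals in both meiotic and postmeiotic cells. Oit1, Haus1 and Foxa3 had higher RNA levels in kd-labelled cells of both types, and Vav2, Ipo9, Tedc1, Rd3, Hspb7 and Zscan12 had lower levels. The members were listed from the kd-against-wild-type comparisons of these same arrays, so their kd differences are given as a description, with no test. All 9 genes were measured among 12260 genes tested. They carried 15 of the 45281 probes on the array, and 12 of the 15 were among the 22605 probes kept as bright enough. In all, 68 genes (0.555% of those tested) passed an adjusted p of 0.05 in both kd comparisons in the same direction, 28 of them higher and 40 lower, and 59 of the 68 are not described here. Ordered by the smaller of their 2 kd differences, the 9 genes ran from rank 2 (Vav2) to rank 35 (Zscan12). Just ahead of Vav2, and not among the 9, stood the proteasome subunit gene Psmd8 (2.95 for Psmd8 against 2.94 for Vav2, on the log2 scale).

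The study asked what the testis form of histone H2B, TH2B, does when chromatin is repackaged in male germ cells. Total RNA was hybridized to 44 Illumina arrays from 2 experiments. Experiment 1 held spermatocytes and round spermatids of adult wild-type and Th2b+/tag mice, with 6 arrays per group, and the tagged allele joins His, Flag and HA peptides to the end of TH2B. Experiment 2 held the same 2 cell types from adult wild-type and th2bkd mice, with 5 arrays per group, and the kd animals are described as making no TH2B. The genotype field of the labels names brdt instead, so the genotypes were taken from the array titles and the design. The strain, the construct behind kd and the way the cells were purified are not given in the sources used here. On the array, the probe of H2bc1, the mouse TH2B gene, was above background on none of the wild-type arrays (0 of 6 or 0 of 5 in each wild-type group). It was above background on 5 of 5 kd-labelled spermatocyte arrays (log2 level 6.61 ± 0.50 against 4.61 ± 0.13 in wild type, SD, n = 5) and on 1 of 5 kd-labelled spermatid arrays. This probe therefore gave no check of the labels in wild-type cells, its direction went against the label, and the arrays are called kd-labelled throughout.

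The 9 genes come from several pathways. Augmin, to which HAUS1 belongs, recruits gamma-tubulin to existing spindle microtubules so that new ones branch from them, and the complex that contains TEDC1 helps delta- and epsilon-tubulin build the triplet microtubules of centrioles. Importins such as IPO9 carry proteins through nuclear pores, and IPO9 is known as a carrier and chaperone of newly made H2A-H2B histone dimers. FOXA3 is a forkhead transcription factor best known from liver. VAV2 is a signalling protein, RD3 holds back the guanylate cyclases of photoreceptors, and HSPB7 is a small heat shock protein best known from heart muscle. OIT1 is the mouse FAM3D protein, a secreted member of the FAM3 family, and ZSCAN12 is a zinc finger protein with a SCAN domain. During spermatogenesis, spermatocytes pass through meiosis and become round spermatids, whose histones are later replaced by protamines.

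Promoter windows, from 250 bases before to 50 bases after the annotated start, were available from RefSeq (GRCm38.p6) for 8 of the 9 genes, in 10 windows because Ipo9 and Rd3 each had 2. The windows of 4 genes are shown, a pair of genes that were higher and a pair that were lower in kd-labelled cells, to let their sequences be compared, each read in the gene's direction. They are Oit1 (chr14:8378714-8379013, minus strand), Foxa3 (chr7:19023490-19023789, minus strand), Vav2 (chr2:27427559-27427858, minus strand) and Tedc1 (chr12:113156171-113156470, plus strand). Capitals mark matches on either strand to the 4 motifs searched: the TATA box (TATAAA), the CCAAT box (CCAAT), the full cyclic AMP response element (TGACGTCA) and the GC box (GGGCGG). No match overlapped another.
Oit1: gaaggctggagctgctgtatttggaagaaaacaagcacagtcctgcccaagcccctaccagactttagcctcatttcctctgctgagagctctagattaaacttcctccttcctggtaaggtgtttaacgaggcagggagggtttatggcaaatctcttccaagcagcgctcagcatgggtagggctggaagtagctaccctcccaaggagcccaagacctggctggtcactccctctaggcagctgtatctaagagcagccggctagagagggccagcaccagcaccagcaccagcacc
Foxa3: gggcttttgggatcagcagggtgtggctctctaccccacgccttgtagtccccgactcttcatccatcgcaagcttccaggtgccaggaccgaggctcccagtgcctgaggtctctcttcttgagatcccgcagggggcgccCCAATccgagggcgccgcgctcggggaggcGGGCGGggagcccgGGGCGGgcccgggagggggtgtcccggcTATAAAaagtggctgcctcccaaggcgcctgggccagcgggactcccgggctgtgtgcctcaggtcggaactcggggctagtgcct
Vav2: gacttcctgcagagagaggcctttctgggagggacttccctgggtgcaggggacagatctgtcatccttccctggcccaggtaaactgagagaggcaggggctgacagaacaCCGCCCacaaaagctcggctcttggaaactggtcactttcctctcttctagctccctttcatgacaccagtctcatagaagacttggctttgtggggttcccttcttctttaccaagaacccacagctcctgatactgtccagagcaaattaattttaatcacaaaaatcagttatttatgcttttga
Tedc1: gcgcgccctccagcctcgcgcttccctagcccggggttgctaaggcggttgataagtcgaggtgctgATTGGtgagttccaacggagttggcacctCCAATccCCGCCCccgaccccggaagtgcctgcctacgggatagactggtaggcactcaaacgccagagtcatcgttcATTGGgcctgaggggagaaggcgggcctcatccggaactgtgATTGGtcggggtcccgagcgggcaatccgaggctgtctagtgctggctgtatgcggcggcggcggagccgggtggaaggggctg
The 9 genes did not share any of these motifs. TATAAA was found in 1 of the 10 windows, that of Foxa3, against 13.6% of all 32851 windows. CCAAT was found in 6 windows of 4 genes (Foxa3, Ipo9, Tedc1 and Rd3) against 37.4% of all windows. GGGCGG was found in 5 windows of 4 genes (Foxa3, Vav2, Ipo9 and Tedc1) against 35.7%. TGACGTCA was found in 0 of the 10 windows against 1.79% of all. The windows of Oit1, Hspb7 and Zscan12 held none of the 4 motifs.

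Levels below are log2 normalized intensities, and values for single arrays are listed in the order of their replicate numbers. Differences are means with the standard error of the fit over all 44 arrays. An array counts as above background for a probe when its detection p, a comparison with negative control beads, is under 0.05. Median non-normalized intensities ran from 91.4 to 119 over the arrays, and 15997 to 19348 probes per array were above background. Transcripts of the transition protein Tnp1, a round spermatid gene, were already abundant in the spermatocyte arrays (12.7 ± 0.32 in wild type of experiment 2 against 14.1 ± 0.097 in its round spermatids, SD, n = 5). The spermatocyte arrays thus also held RNA of round spermatid genes. In RNA from whole cell fractions, fewer cells of a type and less RNA per cell cannot be told apart.

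**Figure D1:**
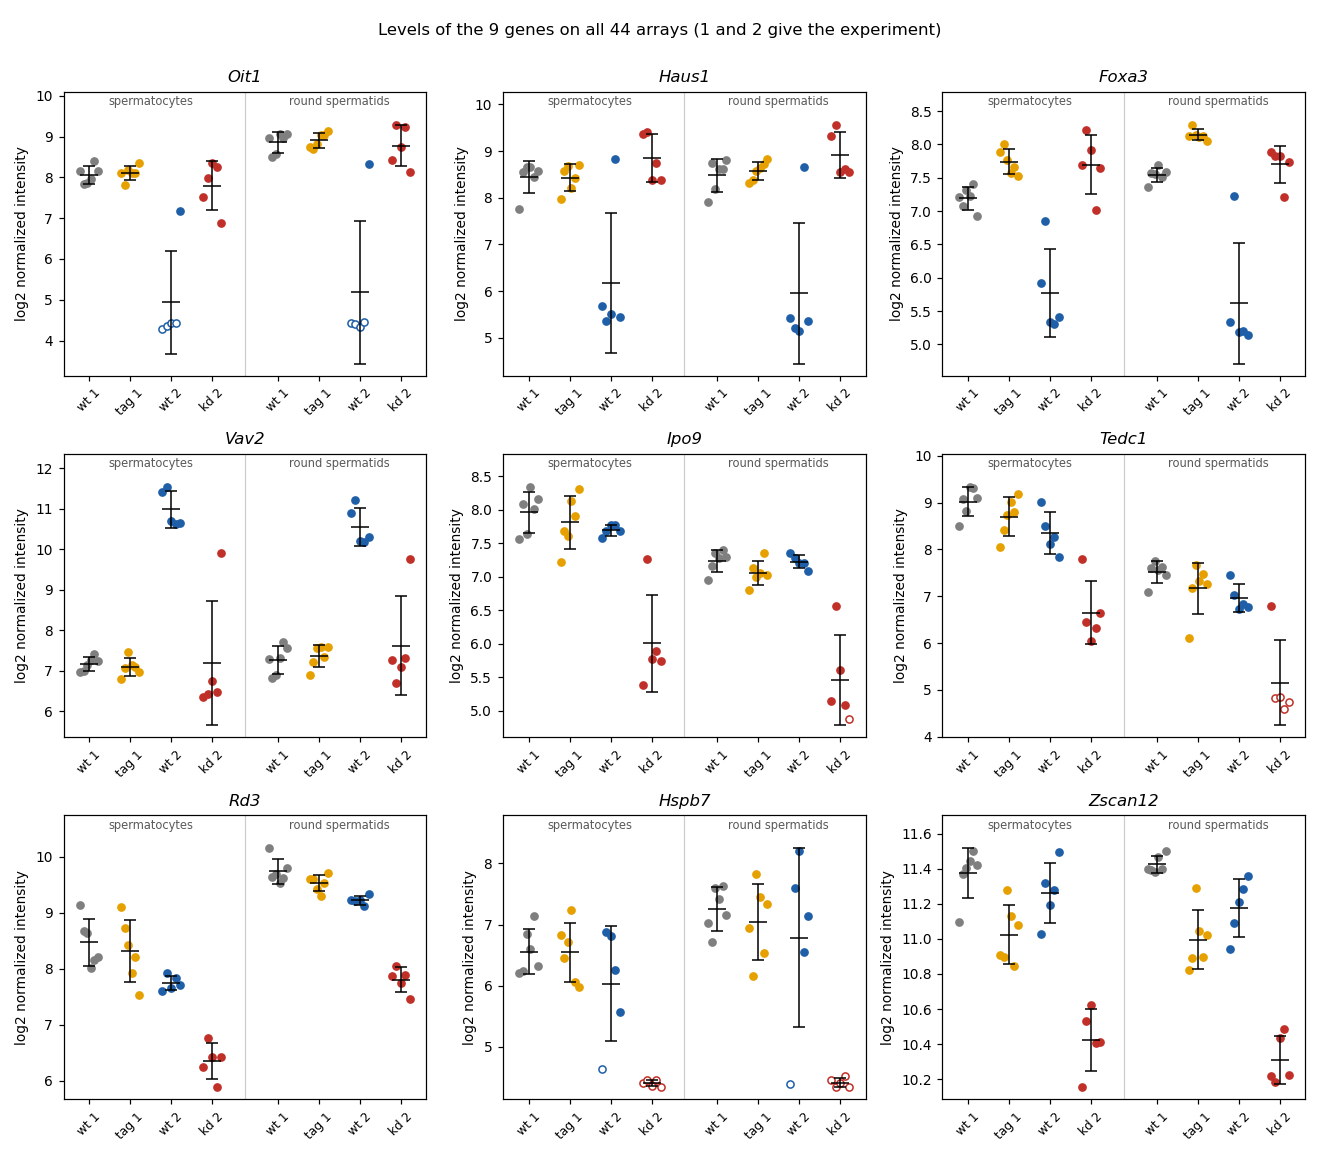
Log2 normalized intensity of the 9 genes on each of the 44 arrays, in spermatocytes (left of each panel) and round spermatids (right), for wild type (wt) and tag of experiment 1 and wild type and kd-labelled of experiment 2. Points are arrays (open where not above background), and bars are the mean ± SD. One array of experiment 2 lies nearer the other genotype for Oit1, Haus1, Foxa3, Hspb7, Vav2, Ipo9 and Tedc1 in both cell types.

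Oit1 was not above background on 4 of 5 wild-type arrays of experiment 2 in each cell type and above background on every other array of the study. Wild-type spermatocytes read 4.29, 4.36, 4.43, 4.42 and 7.18, and kd-labelled spermatocytes read 7.53, 7.99, 8.36, 8.25 and 6.87. In round spermatids, wild-type arrays read 4.42, 4.41, 4.33, 4.45 and 8.32, and kd-labelled round spermatids read 8.44, 9.29, 8.75, 9.24 and 8.14. In both cell types only wild-type number 5 was above background, and it fell inside the kd-labelled range, so the groups overlapped. The same was seen before normalization, where wild-type number 5 had an intensity of 264 in spermatocytes and 436 in round spermatids, against at most 101 and 112 on the other wild-type arrays. The kd-labelled mean was higher by 2.86 ± 0.46 in spermatocytes and by 3.58 ± 0.46 in round spermatids, sizes that rest on a background level for 4 of the 5 wild-type arrays. Without wild-type number 5 no wild-type array was above background, and the kd-labelled cells were at least 7.46-fold higher in spermatocytes and at least 14.4-fold higher in round spermatids, with each dim array set at the lowest signal above background on that array. All 24 arrays of experiment 1 expressed the gene, with levels of 7.80 to 9.13.

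Haus1 gave the same picture with another replicate number. Wild-type spermatocytes read 5.69, 5.36, 5.52, 8.84 and 5.45, and kd-labelled spermatocytes read 9.37, 9.41, 8.37, 8.75 and 8.37. Wild-type round spermatids read 5.42, 5.21, 5.14, 8.65 and 5.37, and kd-labelled round spermatids read 9.33, 9.57, 8.55, 8.61 and 8.54. Wild-type number 4 lay within the kd-labelled range in both cell types, at non-normalized intensities of 665 and 566 against at most 165 and 134 on the other wild-type arrays. The kd-labelled mean was higher by 2.68 ± 0.46 in spermatocytes and 2.96 ± 0.46 in round spermatids, and without wild-type number 4 by 3.35 and 3.63. In experiment 1 every array was on the high side, between 7.76 and 8.82.

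Foxa3 was the gene of the 3 whose groups came nearest to separating. Wild-type spermatocytes read 5.92, 6.86, 5.33, 5.31 and 5.41, and kd-labelled spermatocytes read 7.69, 8.22, 7.92, 7.01 and 7.65. In round spermatids, wild-type arrays read 5.34, 7.23, 5.18, 5.20 and 5.14, and kd-labelled round spermatids read 7.89, 7.83, 7.83, 7.22 and 7.73. Wild-type number 2 was the highest wild-type array in both cell types; in spermatocytes it stayed just below the lowest kd-labelled array, and in round spermatids it just passed it. The kd-labelled mean was higher by 1.93 ± 0.26 and 2.08 ± 0.26, and without wild-type number 2 by 2.20 and 2.48. Wild-type arrays of experiment 1 read 6.92 to 7.41 in spermatocytes and 7.36 to 7.68 in round spermatids, above every wild-type array of the same cell type in experiment 2.

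Among the genes that were lower, Vav2 differed most. Wild-type spermatocytes read 11.41, 11.55, 10.71, 10.61 and 10.65, and kd-labelled spermatocytes read 6.34, 6.43, 6.74, 6.47 and 9.91. Wild-type round spermatids read 10.88, 11.23, 10.21, 10.19 and 10.29, and kd-labelled round spermatids read 7.26, 6.70, 7.08, 7.30 and 9.75. The groups did not overlap in either cell type, but kd-labelled number 5 stood near the wild-type arrays in both, with non-normalized intensities of 1046 and 1015 against at most 224 and 238 on the other kd-labelled arrays. The difference was -3.81 ± 0.42 in spermatocytes and -2.94 ± 0.42 in round spermatids, and without kd-labelled number 5 it was -4.49 and -3.47. The 24 arrays of experiment 1, both genotypes included, read 6.80 to 7.70, and none reached the level of kd-labelled number 5.

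Ipo9, the histone importin, was lower in all kd-labelled arrays than in any wild-type array of the same cell type. Wild-type spermatocytes read 7.58, 7.68, 7.77, 7.77 and 7.67, and kd-labelled spermatocytes read 5.38, 7.26, 5.77, 5.89 and 5.75. In round spermatids, wild-type arrays read 7.35, 7.29, 7.20, 7.21 and 7.09, and kd-labelled round spermatids read 5.15, 6.56, 5.60, 5.08 and 4.87, the last of them not above background. Kd-labelled number 2 was the exception in both cell types, lying nearer the wild-type mean without reaching it. The difference was -1.69 ± 0.24 in spermatocytes and -1.77 ± 0.24 in round spermatids, and without kd-labelled number 2 it was -2.0 and -2.05.

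Tedc1, the centriole gene, had its exception in kd-labelled number 1. Wild-type spermatocytes read 9.03, 8.51, 8.13, 8.26 and 7.83, and kd-labelled spermatocytes read 7.79, 6.46, 6.04, 6.32 and 6.65. Wild-type round spermatids read 7.45, 7.02, 6.72, 6.83 and 6.77, and kd-labelled round spermatids read 6.78, 4.82, 4.85, 4.58 and 4.73. In kd-labelled round spermatids only number 1 was above background, and there it overlapped the wild-type range, whereas the spermatocyte groups stayed just apart. The difference was -1.70 ± 0.31 in spermatocytes and -1.80 ± 0.31 in round spermatids, where 4 of the 5 kd-labelled arrays were at background. Without kd-labelled number 1 it was -1.99 in spermatocytes, and in round spermatids, with no kd-labelled array then above background, kd-labelled cells were at least 4.06-fold lower.

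Hspb7 had no signal above background in kd-labelled cells or in 1 wild-type number. Wild-type spermatocytes read 4.64, 6.88, 6.81, 6.26 and 5.57, and kd-labelled spermatocytes read 4.41, 4.45, 4.36, 4.45 and 4.34. Wild-type round spermatids read 4.40, 7.60, 8.21, 6.55 and 7.14, and kd-labelled round spermatids read 4.46, 4.34, 4.41, 4.52 and 4.34. No kd-labelled array was above background, and neither was wild-type number 1 in either cell type, so that 4 of 5 wild-type arrays carried the signal. In round spermatids wild-type number 1 lay inside the kd-labelled range, and in spermatocytes it lay just above it. Because the kd-labelled groups give only a bound, kd-labelled cells were at least 2.30-fold lower in spermatocytes and at least 3.60-fold lower in round spermatids, from measured means of 4.40 against 6.03 and 4.41 against 6.78. These bounds were set as for Oit1. On all 24 arrays of experiment 1 the gene was above background, at 5.98 to 7.82.

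Rd3 and Zscan12 were the 2 genes in which no array broke the pattern. Rd3 in spermatocytes read 7.60, 7.93, 7.66, 7.83 and 7.72 in wild type and 6.25, 6.77, 6.42, 5.88 and 6.43 in kd-labelled arrays. In round spermatids it read 9.22, 9.22, 9.24, 9.12 and 9.34 in wild type and 7.88, 8.05, 7.75, 7.89 and 7.45 in kd-labelled arrays. The difference was -1.40 ± 0.19 and -1.42 ± 0.19, and both pairs of groups were well apart. Zscan12 read 11.03, 11.32, 11.19, 11.28 and 11.50 in wild-type spermatocytes and 10.15, 10.53, 10.62, 10.41 and 10.41 in kd-labelled ones. In round spermatids Zscan12 read 10.94, 11.09, 11.21, 11.29 and 11.36 in wild type and 10.22, 10.18, 10.43, 10.48 and 10.22 in kd-labelled arrays. Its difference was the smallest of the 9, at -0.84 ± 0.11 and -0.87 ± 0.11, and its groups did not overlap.

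Counted over the 9 genes, the kd-labelled and wild-type arrays did not overlap for 7 genes in spermatocytes (all but Oit1 and Haus1) and for 4 in round spermatids (Vav2, Ipo9, Rd3 and Zscan12). Over all genes the groups did not overlap for 3.41% in spermatocytes and 5.29% in round spermatids, and 1.56% and 1.89% passed the adjusted threshold. The members were chosen by these comparisons, so nothing is read from their counts. Without background correction the same differences were smaller, for example 1.43 and 2.00 for Oit1 and -0.66 and -1.09 for Hspb7, with the sign kept for all 9 genes.

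An array was said to break the pattern when its value lay nearer the mean of the other genotype than the mean of the remaining arrays of its own. This held for 14 of the 180 values of the 9 genes in experiment 2. The 14 values came from 7 combinations of a gene and a replicate number, and all 7 recurred in both cell types. They were wild-type number 5 for Oit1, number 4 for Haus1, number 2 for Foxa3 and number 1 for Hspb7, and kd-labelled number 5 for Vav2, number 2 for Ipo9 and number 1 for Tedc1. No wild-type number broke the pattern for more than 1 of the 9 genes, nor did any kd-labelled number. The 9 genes were chosen on these arrays, so nothing is concluded from this about an array as a whole. The labels do not say whether arrays of the same number share an animal. Over all genes, the deviations of same-numbered wild-type spermatocyte and spermatid arrays from their group means correlated in each of the 5 pairs (Pearson r of 0.188 to 0.346 across genes, which are not independent), and those of kd-labelled arrays by more than 0.1 in 4 of 5 pairs. Among the other 59 genes past the threshold in both cell types, 49 had at least 1 such array. In those 59 genes, 21 of 74 breaking combinations of gene and number recurred in both cell types, so recurrence is not particular to the 9 genes. The shares are also not alike in the size of the change. By the smaller kd difference, the 7 genes with a breaking number ranked 2 to 12 of the 68, whereas the 59 reached down to rank 68.

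**Figure D2:**
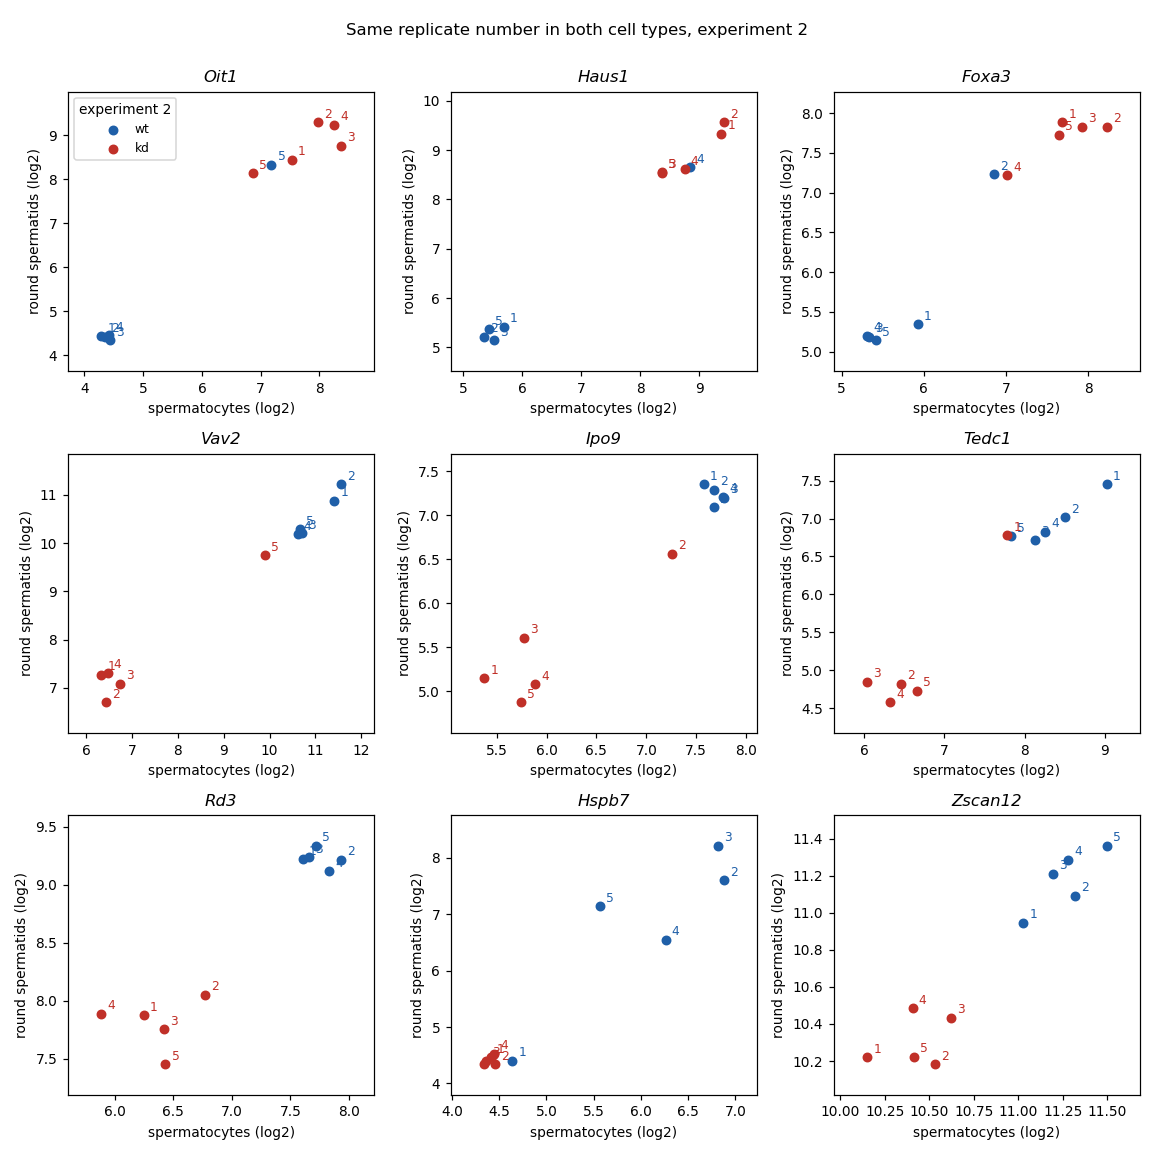
For each gene, the log2 level in the spermatocyte array (x axis) against the round spermatid array (y axis) of the same replicate number in experiment 2, wild type (wt) and kd-labelled (kd), with the replicate number beside each point. The numbers that lie among or toward the other genotype do so on both axes, such as wild-type 5 for Oit1 (7.18 and 8.32) and kd-labelled 5 for Vav2 (9.91 and 9.75).

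For each of the 9 genes, the 3 genes that followed it most closely over the 20 arrays of experiment 2 were found by Pearson correlation after removing the mean of each cell type. These correlations describe 20 arrays that share the kd difference by which the 9 genes were chosen. They include the arrays that break the pattern, so a follower's break in the same number is in large part built into its choice and is given as a description. Haus1 was followed by Tubb6, a beta-tubulin gene (r = 0.96), by Sall3, a zinc finger gene (0.93), and by Cyb5a, cytochrome b5 (0.92), which all lie with Haus1 on chromosome 18 of GRCm38.p6. Foxa3 was followed by Isoc2a (0.97), the splicing regulator gene Clasrp (0.96) and the zinc finger gene Zfp296 (0.94), all on chromosome 7 with Foxa3. Hspb7 was followed by Gpn2 (0.93), Sh3bgrl3 (0.92) and the scramblase gene Xkr8 (0.91), all on chromosome 4 with Hspb7. In each of these 3 trios, all 3 genes so chosen had their break in the same wild-type number as the member, in both cell types. Isoc2a, for example, read 8.49 in wild-type spermatocyte number 2 against 6.10 to 6.53 in the other 4, and Tubb6 read 9.70 in wild-type spermatid number 4 against 7.38 to 7.82.

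The remaining members had followers on mixed chromosomes. Vav2 was followed by Dnlz (r = 0.93), which lies with Vav2 on chromosome 2, by Anapc13 (0.87), a subunit of the anaphase-promoting complex, and by Mag (0.85), the myelin-associated glycoprotein gene. Oit1 was followed by Nid2 (0.82, with Oit1 on chromosome 14), Plcd4 (0.82) and Psmd8 (0.81), and Tedc1 by B3galnt2 (0.87), Tnfaip2 (0.87) and Adam6a (0.86), the last pair on chromosome 12 with Tedc1. Ipo9, Rd3 and Zscan12 formed a set of their own: Rd3 was the gene nearest to both Ipo9 (0.93) and Zscan12 (0.94), and Casz1, a zinc finger gene, was among the nearest 3 of all 3 members. In all, 14 of the 27 followers lay on the chromosome of their member, where 2.53% to 8.09% of the tested genes lie. Of the 21 followers of the 7 genes with a breaking number, chosen on arrays that include it, 14 broke the pattern in that number in both cell types.

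The neighbours of the 9 genes on their chromosomes were examined next. The 3 tested genes on each side of every member gave 54 neighbours, of which 1 passed in kd-labelled spermatocytes and 0 in round spermatids by limma's moderated test, against 1.56% and 1.89% of all genes. At an unadjusted p under 0.05 there were 6 neighbours in each cell type, where 12.7% and 10.3% of all genes lay. The 1 neighbour was Csrp1, a smooth muscle LIM protein gene and the second tested gene after Ipo9, which rose by 1.12 ± 0.27 (adjusted p = 0.0159) in kd-labelled spermatocytes, while Ipo9 itself was lower. The call was lost when only experiment 2 was fitted, and without wild-type number 4 or without kd-labelled number 1 (0 neighbours passed in spermatocytes in each case). Beside it, 6 of 12 measured markers of peritubular muscle and vessel rose in kd-labelled spermatocytes and 0 in round spermatids. The summed level of these markers ran from 2767 to 11196 on kd-labelled spermatocyte arrays and from 895 to 2315 on wild-type ones, with Tagln not above background on any array of either group. In round spermatids the summed level did not overlap either, at 1285 to 1730 on kd-labelled and 881 to 1271 on wild-type arrays. Of the Sertoli markers, 1 of 8 rose in kd-labelled spermatocytes, and 0 of 5 Leydig markers did. The part of these cells in the change of Csrp1 or of the 9 genes was not tested. The median difference of the neighbours was -0.066 in spermatocytes and -0.031 in round spermatids, beside 0.00079 and 0.0039 for all genes.

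Known partners and relatives of the 9 genes were tested in kd-labelled cells. Of 83 listed relatives, 58 were tested, and 1 passed in each cell type, the same gene in both, beside 1.56% and 1.89% of all genes. It was Zkscan17, a SCAN zinc finger gene like Zscan12, which fell by 0.53 in kd-labelled spermatocytes (SE 0.10, adjusted p = 0.00152) and by 0.51 in round spermatids (adjusted p = 0.00175). Of the 14 tested SCAN genes that was the only call, and the list's median differences were -0.080 and -0.012. None of 10 augmin and gamma-tubulin genes passed with Haus1: the augmin subunit gene Haus5 had 0.59 ± 0.18 (adjusted p = 0.0871) and the gamma-tubulin anchor Nedd1 -0.45 ± 0.19 (adjusted p = 0.277) in spermatocytes. Among 16 importin and exportin genes beside Ipo9, none passed either, with differences in spermatocytes from -0.55 for Kpnb1, importin beta, to 0.25 for Ipo4. No call was made among 2 delta- and epsilon-tubulin partners of Tedc1, 6 small heat shock genes or 3 genes of the FAM3 family. Guca1a and Guca1b, which encode activators of retinal guanylate cyclases, were not called either. The cyclase genes Gucy2e and Gucy2f, and Foxa1 and Foxa2, were not bright enough to be tested. Over all 58 relatives, 4 had an unadjusted p under 0.05 in spermatocytes and 6 in round spermatids, beside 12.7% and 10.3% of all genes.

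Additional probes were informative for Vav2 and Rd3. Vav2 had 4 probes, of which 3 were kept. A dimmer kept probe, ILMN_2436992, also gave higher levels in wild type of experiment 2 than in kd-labelled cells, with 5.67 against 4.67 in spermatocytes and 5.67 against 4.76 in round spermatids. Its groups did not overlap, although in round spermatids the lowest wild-type and the highest kd-labelled array, number 5 in both, read 5.02 each. The third, ILMN_2971753, had 4.98 against 4.46 and 5.23 against 4.62, with overlap in both cell types. Neither of these dim Vav2 probes was as high on any array of experiment 1 as its wild-type mean in experiment 2. The fourth Vav2 probe was above background on no array. For Rd3 the kept probes disagreed: the second, ILMN_2506683, differed by -0.15 ± 0.18 in spermatocytes and 0.10 ± 0.18 in round spermatids, where the main probe, ILMN_1242556, showed -1.40 and -1.42. Both Rd3 probes were higher in round spermatids than in spermatocytes of wild type of experiment 1, by 1.27 ± 0.18 and 0.84 ± 0.17. The remaining Rd3 probe was above background on no array, and a second Ipo9 probe on 2 of the 44.

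Experiment 1, whose group differences played no part in choosing the genes, was used for tests. The fit over all arrays shares a spread per gene between the experiments. Its standard errors and p-values therefore also rest on the arrays of experiment 2, breaking ones included. For Oit1 the SE of the tag difference was 0.42. Its SDs were 0.18 to 0.25 in the groups of experiment 1, and 1.26 and 1.75 in wild type of experiment 2. For genes with a breaking array, a result short of the threshold in this fit does not show that they were unchanged. The first test asked whether the tagged TH2B allele changed the 9 genes. By limma's moderated test over all genes, 1 of the 9 passed in tag spermatocytes, where 5.39% of all genes passed, and 1 in tag round spermatids, where 16.2% passed. The gene was Zscan12 in both cases. In spermatocytes its wild-type arrays had a lowest, median and highest level of 11.10, 11.41 and 11.50, and its tag arrays of 10.84, 11.00 and 11.28, so the groups overlapped, with 4 of 6 tag arrays below every wild-type array. In round spermatids the wild-type values were 11.38, 11.40 and 11.50 and the tag values 10.82, 10.96 and 11.29, and the groups did not overlap. Zscan12 fell by 0.35 in tag spermatocytes (SE 0.097, adjusted p = 0.0211) and by 0.43 in tag round spermatids (SE 0.097, adjusted p = 0.000954), in the direction of its kd difference. The spermatocyte call was lost without wild-type number 4 (adjusted p = 0.0516) or number 5 (0.0635), or without tag number 1 (0.0658), number 2 (0.0672) or number 5 (0.062). It was also lost with median centring (0.135) and with the 2 groups fitted alone (0.171). Over all 11 other settings it ranged from 0.0044 to 0.171, and in round spermatids from 1.56e-05 to 0.0058.

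Foxa3 was higher on every tag array than on every wild-type array of experiment 1, in both cell types. Its wild-type spermatocytes had a lowest, median and highest level of 6.92, 7.21 and 7.41, and its tag spermatocytes of 7.52, 7.71 and 8.01. In round spermatids the wild-type values were 7.36, 7.56 and 7.68 and the tag values 8.05, 8.13 and 8.30. The difference was 0.55 ± 0.23 (adjusted p = 0.236) in spermatocytes and 0.60 ± 0.23 (adjusted p = 0.0736) in round spermatids by limma's test, and neither passed. Same-numbered wild-type and tag arrays deviated together in all 6 pairs of each cell type, and with the replicate number as a block both differences passed (adjusted p = 0.0263 and 0.00537). They also passed when only experiment 1 was fitted (adjusted p = 0.00133 and 8.93e-05), which leaves out the wild-type arrays of experiment 2, where the SD of Foxa3 was 0.66 and 0.91 against 0.082 to 0.19 in the groups of experiment 1. Foxa3 was the 1 gene of 9 whose tag and wild-type spermatocytes did not overlap (1.89% of all genes), and with Zscan12 it made 2 of 9 in round spermatids (10.1% of all genes).

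The other 7 genes showed no difference past the threshold with the tag, in the fit over all arrays or with experiment 1 alone. Their differences ran from -0.32 ± 0.28 (Tedc1) to 0.044 ± 0.42 (Oit1) in spermatocytes and from -0.34 ± 0.28 (Tedc1) to 0.10 ± 0.39 (Vav2) in round spermatids. By limma's test, no difference of the tag effect between the cell types was found for the 9 genes (0 passed, and 0 had an unadjusted p under 0.05, beside 2.5% of all genes that passed). With standard errors of up to 0.60 (Oit1), this does not show that the tag effect was alike in both cell types. The largest such differences were -0.20 ± 0.52 for Hspb7 and 0.18 ± 0.55 for Vav2. Whether the kd and tag differences of a gene themselves differ was not tested, because the kd arrays chose the genes.

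**Figure D3:**
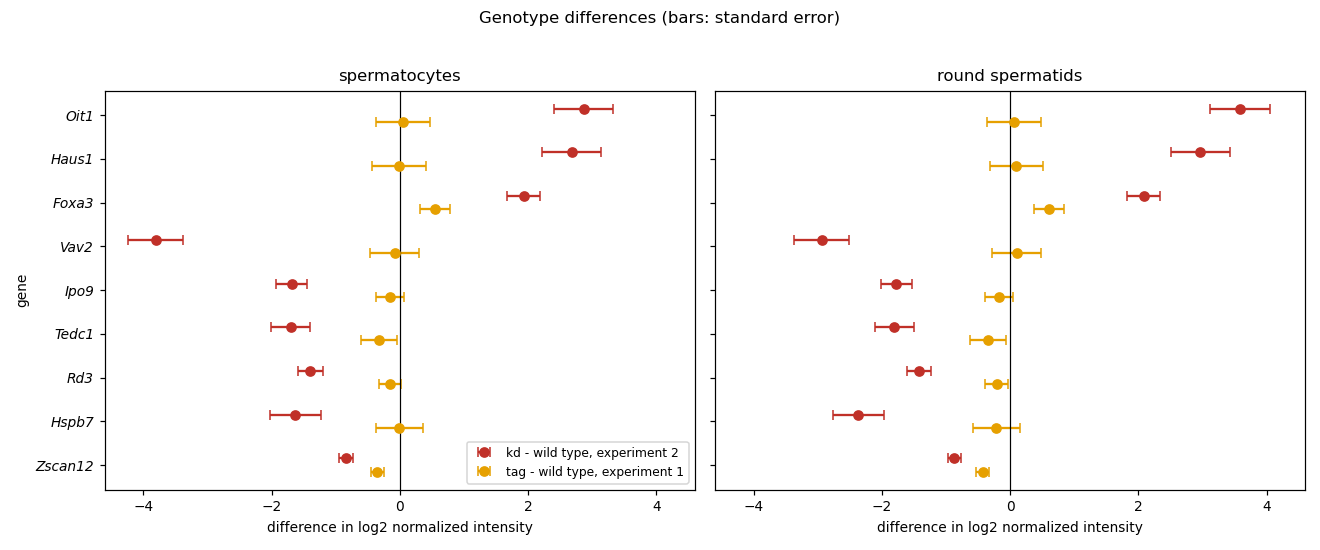
Differences between genotypes for the 9 genes on the log2 scale, kd-labelled minus wild type in experiment 2 (red) and tag minus wild type in experiment 1 (yellow), in spermatocytes (left) and round spermatids (right), with the standard error as bars. The kd differences run from -3.81 to 3.58, and those of the tag lie between -0.43 and 0.60, with Foxa3 highest and Zscan12 lowest.

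The change from spermatocytes to round spermatids was tested in the wild-type cells of experiment 1. Of the 9 genes, 3 passed in the fit over all arrays, where 61.5% of all genes did, and 6 passed with experiment 1 alone. Tedc1 fell by 1.51 (SE 0.28, adjusted p = 8.17e-06), from a lowest, median and highest level of 8.50, 9.09 and 9.33 to 7.09, 7.58 and 7.75. Ipo9 fell by 0.73 (SE 0.22, adjusted p = 0.00335), from 7.56, 8.05 and 8.35 to 6.95, 7.29 and 7.39. Rd3 rose by 1.27 (SE 0.18, adjusted p = 3.63e-08), from 8.02, 8.43 and 9.14 to 9.53, 9.67 and 10.15. In each of these 3 genes, and in Oit1, the stages did not overlap (4 of 9, beside 34.2% of all genes). Oit1 was higher in round spermatids by 0.79 ± 0.42 (adjusted p = 0.101) and Hspb7 by 0.70 ± 0.37 (adjusted p = 0.0957), short of the threshold. With the replicate number as a block Hspb7 passed (adjusted p = 0.0437), and with experiment 1 alone both did (adjusted p = 8.11e-06 for Oit1 and 0.0189 for Hspb7), as did Foxa3 (0.35, adjusted p = 0.00375, against 0.196 over all arrays). The Foxa3 difference changed sign with median centring (-0.081). Zscan12 passed with cyclic loess normalization (0.37, adjusted p = 0.000446) and not otherwise (0.051, adjusted p = 0.674 in the fit over all arrays). In wild type of experiment 2, whose arrays were used in choosing the genes, the stage differences were -1.40 for Tedc1, -0.47 for Ipo9 and 1.48 for Rd3. In kd-labelled cells, mean levels in spermatocytes and round spermatids were 6.65 and 5.15 for Tedc1 and 6.35 and 7.81 for Rd3, in the same direction.

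The wild-type levels of both experiments were then set side by side. For Ipo9, Tedc1, Rd3, Hspb7 and Zscan12 the wild-type mean of experiment 1 lay nearer the wild-type than the kd-labelled mean of experiment 2, in both cell types, with differences of 0.013 (Ipo9 in round spermatids) to 0.73 (Rd3 in spermatocytes) from the wild type. For Oit1, Haus1, Foxa3 and Vav2 it lay nearer the kd-labelled mean in both cell types. Wild type of experiment 1 differed from wild type of experiment 2 by 3.13 and 3.67 for Oit1 (against means in which 4 of 5 arrays were at background), 2.27 and 2.52 for Haus1, 1.42 and 1.93 for Foxa3, and -3.82 and -3.30 for Vav2. From the kd-labelled mean it differed by no more than 0.51 for these 4 genes (Foxa3 in spermatocytes). The experiment and the batch of arrays cannot be told apart, so these differences between experiments were given no test. Among the other 59 genes past the threshold in both cell types, 27 lay nearer the kd-labelled mean in both cell types, 29 nearer the wild type, and 3 were mixed.

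**Figure D4:**
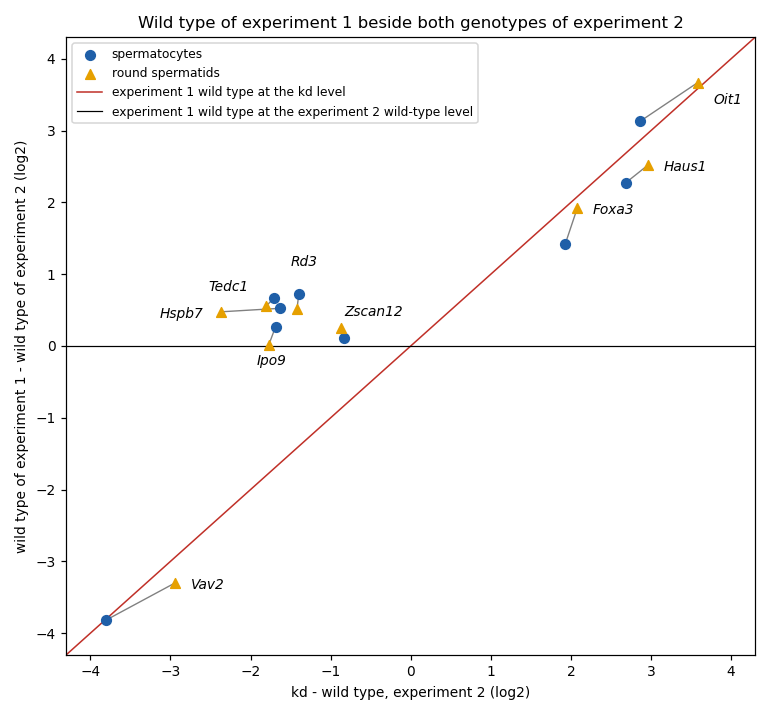
For each gene, kd-labelled minus wild type in experiment 2 (x axis) against wild type of experiment 1 minus wild type of experiment 2 (y axis), both on the log2 scale, with circles for spermatocytes, triangles for round spermatids and a grey line joining a gene's cell types. On the black line experiment 1 has the wild-type level of experiment 2, and on the red line it has the kd-labelled level. Oit1, Haus1, Foxa3 and Vav2 lie by the red line (-3.82 to 3.67 on the y axis), and the other 5 genes lie between 0.013 and 0.73.

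Ordered by mean level within a cell type, the 8 groups gave 2 patterns over the 9 genes. Oit1, Haus1, Foxa3 and Vav2 had wild type of experiment 2 as the group apart, below the other groups for Oit1, Haus1 and Foxa3 and above them for Vav2. In Oit1, for example, group means were 8.07 (wild type) and 8.11 (tag) in spermatocytes of experiment 1, and 4.94 (wild type) and 7.80 (kd-labelled) in those of experiment 2. Those neighbouring means of 7.80 to 8.11 differed by less than the SD of the kd-labelled arrays (0.61, n = 5). Ipo9, Tedc1, Rd3, Hspb7 and Zscan12 had the kd-labelled cells as the group apart, below all 3 other groups of the same cell type. For Ipo9 in round spermatids, means were 7.24 (wild type) and 7.06 (tag) in experiment 1, 7.23 in wild type and 5.45 in kd-labelled cells of experiment 2, and the 3 higher means differed by about the SD of the arrays (0.099 to 0.18).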

How the data were processed

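RNA of mouse spermatocytes and round spermatids was measured on 44 Illumina BeadChips. The authors' deposited table of non-normalized values gives, for every probe on every array, an intensity with its detection p-value, and a second deposited table gives the authors' processed intensity, which had the same rank order within each array. Both are per the file headers, how the processed values were normalized is not stated there or in the labels, and no column was left without a sample (0 unmapped). Background correction used the detection p-values (normexp, offset 16) with quantile normalization in limma 3.58.1 under R 4.3.3. Probes with a detection p under 0.05 on at least 5 arrays were kept, and a gene was represented by its probe with the highest mean. Group means were fitted over all 44 arrays, and Benjamini-Hochberg adjustment covered 12260 genes, with a threshold of 0.05. In a simulated kd comparison in spermatocytes over 12260 genes, 86% of genes changed by 1 on the log2 scale were recovered and 99% of those changed by 2, with 16 false calls. The simulated arrays were independent, with 1 spread per gene in all groups and no breaking arrays. These figures therefore do not carry over to genes with a breaking array.

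The members and the lists of relatives, neighbours and markers were chosen with earlier results of these data known. The relatives of Vav2 are not reported here one by one. The genes named are the 9 members, those of the lists or neighbours that passed, the extremes of a list and the 3 genes most correlated with each member. Replicate numbers come from the array titles. Wild-type and tag arrays of the same number deviated together across genes in all 6 pairs of spermatocytes (r of 0.234 to 0.857) and of round spermatids (0.156 to 0.417). So did wild-type spermatocytes and spermatids of experiment 1 (0.128 to 0.570). These numbers were regarded as pairs. Wild-type and kd-labelled arrays passed 0.1 in 3 of 5 and 1 of 5 pairs and were not regarded so. In experiment 1, only 3 of 6 wild-type spermatocyte arrays correlated best with the tag array of their own number, and 4 of 6 in round spermatids. Tag spermatocytes and spermatids of the same number had r of -0.030 to 0.462, over 0.1 in 5 of 6 pairs. The main fit did not use the pairs, and the replicate block was run as an alternative setting. The design speaks of biological replicates. No 2 arrays were identical and the precision is limited by how many arrays a group has. Gene names follow the array annotation, in which 34885 probes have 1 symbol, 18 several and 10378 none. Alternatives covered normalization, background correction, the authors' values, filters, probe choice, array weights, the samples fitted, the replicate block and leaving out each array.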

Additional observations from a re-analysis of the deposited data

Results flagged for a closer look

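In 14 groups of 5 or 6 arrays, out of 96 groups of the kept probes, a single array stood apart by Dixon's criterion at its 1 in 20 level. The groups are not independent, and the arrays of experiment 2 were used in choosing the genes, so the count is only a description. In 9 of the 14 groups, all of experiment 2, it was the main-probe array that broke the pattern as defined above. Oit1 read 7.185 in wild-type spermatocyte number 5 of experiment 2 (4.29 to 4.43 on the others) and 8.324 in wild-type round spermatid number 5. Haus1 read 8.841 and 8.653 in wild-type number 4 of the same cell types, and Foxa3 read 7.232 in wild-type round spermatid number 2. Vav2 read 9.908 and 9.747 in kd-labelled number 5, and its dimmest kept probe stood apart in the same spermatocyte array, at 4.832. Ipo9 read 7.26 in kd-labelled spermatocyte number 2, and Tedc1 read 6.781 in kd-labelled round spermatid number 1.

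In the remaining groups the array was the lowest of its group. Foxa3 read 7.219 in kd-labelled round spermatid number 4, against 7.73 to 7.89 on the others. In experiment 1, wild-type spermatocyte number 1 was the lowest for Haus1, at 7.763 against 8.45 to 8.66, and for Zscan12, at 11.1 against 11.37 to 11.5. The tag spermatocyte means were 8.43 for Haus1, above that array, and 11.02 for Zscan12, close to it. Tedc1 read 6.111 in tag round spermatid number 1, against 7.18 to 7.66 on the other arrays of that group.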

How the results depend on the processing

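All 9 genes kept the sign of their kd difference in both cell types under all 11 alternative settings and with any 1 array left out (9 of 9 each time), which the choice of the genes fixes in part. No difference of the 9 genes that passed in experiment 1 in the fit over all arrays changed sign. Several short of the threshold in that fit did, such as the tag difference of Oit1 in spermatocytes (-0.0027 without tag number 6). The number of arrays, and signals near background for Oit1, Hspb7 and the dim probes, limit the sizes: with the mean of a gene's probes the kd differences were -1.78 and -1.49 for Vav2 and -0.78 and -0.66 for Rd3. The cause of the changes listed here was not tested. A slide block was not run, since the headers give no slide.

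Over all genes, tag calls in spermatocytes numbered 409 with the experiment fitted alone and 171 with the compared groups alone (661 otherwise). Calls for the difference of the tag effect numbered 169 with cyclic loess, 141 with median centring, 185 with a stricter filter, 515 with array weights and 171 with either smaller fit (306). Calls for kd-labelled spermatocytes numbered 311 with loess, 469 with weights, 365 with experiment 2 alone and 113 with the groups alone (191). Calls for kd-labelled round spermatids numbered 749, 355 and 364 with the last 3 of these (232). With median centring, 2618 of the stage calls were higher and 4849 lower (35.1% higher against 45.3%), and the median of all genes moved from -0.038 to -0.15. The stage values of Haus1, Foxa3 and Vav2, none called in the fit over all arrays, then changed sign (-0.32, -0.081 and -0.34). For kd-labelled round spermatids 58 calls were then higher and 164 lower (26.1% against 36.6%).

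Of the 9 genes, calls with the tag in spermatocytes numbered 0 with median centring and 2 with experiment 1 alone. In tag round spermatids they numbered 2 without background correction, with the authors' values and with either smaller fit, and for the stage 6 with either smaller fit. Relatives called in kd-labelled spermatocytes numbered 2 with loess, median centring, weights and experiment 2 alone, and 2 in round spermatids with weights. Neighbours called in spermatocytes numbered 2 with loess, no background correction and the authors' values, 4 with weights and 0 with either smaller fit. In round spermatids they numbered 1 with loess, no background correction, the authors' values, the mean of probes and either smaller fit, and 5 with weights.

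With the replicate number as a block, 2 of the 9 genes were called in each tag comparison, Zscan12 and Foxa3, and Hspb7 passed for the stage; the block changed no other call of the 9 genes. The kd and wild-type numbers share only a number; there the block gave 524 and 484 calls over all genes, 2 relatives in spermatocytes and 4 neighbours in round spermatids, and 3 of 5 spermatocyte and 1 of 5 spermatid arrays correlated best with their own number.

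With 1 array left out, calls over all genes ranged from 468 to 1114 for the tag in spermatocytes (1114 without wild-type number 1), 1736 to 2065 in round spermatids, 255 to 404 for the difference of the tag effect, 7243 to 7664 for the stage, and 120 (without kd-labelled number 1) to 273 and 161 to 289 for kd-labelled spermatocytes and round spermatids. Of the 9 genes, 0 to 1, 1, 0 and 3 were called for the first 4 of these. Relatives called ranged from 1 to 2 in spermatocytes (2 without kd-labelled number 2) and stayed at 1 in round spermatids, and neighbours ranged from 0 to 1 and from 0 to 2 (2 without kd-labelled number 1 or 2).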
